A study of Mus musculus with 21 samples.

Results

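The genes described are 9 components of striated muscle myosin: the heavy chains Myh6, Myh7 and Myh7b, the light chains Myl2, Myl3, Myl7, Myl4 and Myl1, and the light chain kinase Mylk3. They were chosen by gene name and read through probe sets annotated to 1 gene alone, with the probe set of the highest mean log2 level kept for each gene. Each of the 9 had 1 such probe set and none shared with another gene, and they are 9 of the 19937 genes so measured.

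Total RNA from the left ventricle was hybridised to whole-transcript arrays in a study of what tamoxifen does to hearts that carry an inducible Cre recombinase. The tissue came from mice aged 9 to 13 weeks, injected on 1 day or on 4 days in a row with tamoxifen at 40 mg/kg or a control injection and killed 4 days later. MerCreMer mice, genotype Tg(αMHC-MerCreMer), carry a transgene in which the promoter of α-myosin heavy chain, Myh6 itself, drives in cardiomyocytes a Cre that mutated ligand-binding domains of the oestrogen receptor hold inactive until tamoxifen binds, and wild-type mice lack it. The labels give no floxed allele and no strain. The 6 groups were MerCreMer mice after 4 tamoxifen injections (3 arrays), MerCreMer mice after 4 control injections (3), MerCreMer mice after 1 tamoxifen injection (3), MerCreMer mice after 1 control injection (3), wild-type mice after 4 tamoxifen injections (3) and wild-type mice after 4 control injections (6). Each group of 3 held 1 male and 2 females, and the wild-type controls held 3 of each sex.

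Myosin II of striated muscle is a hexamer of a pair of heavy chains, which carry the ATPase motor, and of essential and regulatory light chains that brace the lever arm. Adult mouse ventricle uses the fast α heavy chain Myh6 with the ventricular light chains Myl2 and Myl3, while the slow β heavy chain Myh7 is fetal and returns under load or low thyroid hormone. Atrial muscle uses Myl7 and Myl4 in place of Myl2 and Myl3, so both serve as markers of atrial tissue in a ventricular sample.

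The heavy chain genes carry microRNAs in their introns, which are shown because their seeds tie the 3 loci together. Capitals mark the seed, bases 2 to 8, in the mature sequences from RefSeq, build GRCm38.p6, written 5′ to 3′.
mmu-miR-208a-3p: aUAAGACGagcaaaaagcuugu
mmu-miR-208b-3p: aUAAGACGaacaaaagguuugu
mmu-miR-499-5p: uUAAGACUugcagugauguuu
The first lies within Myh6 (chr14:54949072-54949093, minus strand), the next within Myh7 (chr14:54975710-54975731, minus strand) and the last within Myh7b (chr2:155622893-155622913, plus strand). The miR-208 pair shared 7 of 7 seed bases, and miR-499 shared 6 of 7 with each of them. On the arrays Mir208a read between 4.69 and 5.95 log2 units, Mir499 between 2.54 and 3.39 with 0 arrays reaching 5, and Mir208b had no probe set used here.

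Promoter windows of 300 bases, 250 before to 50 after the annotated start, are given for Myh6, which drives the transgene, and for the atrial light chains Myl7 and Myl4, whose levels moved together from array to array. Capitals mark the motifs, searched for on both strands. The TATA box was spelled TATAAA. The MCAT motif, known to be bound by TEAD factors, was spelled CATTCC. The core of the sites of GATA factors was spelled GATAA. The CArG box, known to be bound by SRF, and the MEF2 site were searched for as well. Sequences are from RefSeq.
Myh6 promoter, chr14:54966558-54966857, minus strand: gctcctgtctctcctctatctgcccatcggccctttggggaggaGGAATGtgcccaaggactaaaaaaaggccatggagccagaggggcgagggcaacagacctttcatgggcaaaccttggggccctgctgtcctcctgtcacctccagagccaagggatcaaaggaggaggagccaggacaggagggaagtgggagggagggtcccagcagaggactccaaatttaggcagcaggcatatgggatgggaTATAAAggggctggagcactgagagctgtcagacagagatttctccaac
Myl7 promoter, chr11:5898733-5899032, minus strand: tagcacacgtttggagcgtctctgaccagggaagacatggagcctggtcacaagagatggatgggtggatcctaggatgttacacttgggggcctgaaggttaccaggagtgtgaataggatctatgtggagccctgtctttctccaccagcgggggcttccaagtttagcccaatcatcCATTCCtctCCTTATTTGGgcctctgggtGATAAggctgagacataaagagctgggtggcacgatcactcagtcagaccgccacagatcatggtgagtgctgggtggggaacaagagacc
Myl4 promoter, chr11:104550413-104550712, plus strand: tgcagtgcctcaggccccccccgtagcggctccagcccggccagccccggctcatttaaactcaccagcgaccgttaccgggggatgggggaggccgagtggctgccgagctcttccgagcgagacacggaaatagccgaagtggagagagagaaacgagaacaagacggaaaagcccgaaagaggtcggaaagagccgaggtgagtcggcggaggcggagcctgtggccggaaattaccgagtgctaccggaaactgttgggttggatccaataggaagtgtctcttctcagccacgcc
The Myh6 window held TATAAA at position 252, just after the annotated start, and an MCAT motif on the reverse strand at position 45. This whole window lies inside the annotated span of Myh6. The Myl7 window held an MCAT motif, a CArG box and a GATA core at positions 181, 190 and 210, with no overlap between them. None of the 5 motifs was found in the Myl4 window, whose start lies inside the annotated span of that gene. Over all 32851 windows of the RefSeq table, 13.6% held the TATA box, 14.7% the MCAT motif, 25.4% the GATA core, 1.63% the CArG box and 0.557% the MEF2 site, so that the CArG box was the rarer of the motifs in the Myl7 window. A match is a run of letters and no evidence of binding.

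Some arrays need to be known before the results. Y-linked genes matched the labelled sex on all 21 arrays, but Xist, the RNA that coats the inactive X chromosome, did not on 1: MerCreMer 4 tamoxifen replicate 3, labelled female, read 3.12 log2 units for Xist and 2.19 for the mean of 3 Y-linked genes. Other females read 7.38 to 8.03 for Xist, and males 6.06 to 6.72 for the Y-linked mean. Results that rest on that array are given with and without it. The residual variance across genes was 0.114 in the MerCreMer 4 tamoxifen group and 0.0165 to 0.0238 in the other 5. By the level of a probe set with no gene, the arrays fell into sets of 13 (11.22 to 11.36) and 8 (11.47 to 11.52) that the labels do not name. All wild-type arrays and 1 array of each MerCreMer group lay in the larger set. The 10 cardiomyocyte markers averaged 11.92 to 12.01 log2 units on the arrays of those 5 groups and the 8 ventricular markers 8.67 to 9.12. The cardiomyocyte list includes Myh6, and the ventricular list Myl2, Myl3 and Myh7, so these means partly repeat the members' own values. In whole tissue, fewer cells of a type and less RNA per cell cannot be told apart.

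Of the 9 members, 2 fell and none rose after 4 tamoxifen injections in MerCreMer mice, where 23.3% of 11384 tested genes were called, 9.41% of those tested in the lower direction and 13.9% in the higher. The genes that fell were Myl7 and Mylk3. A gene was tested when it reached 5 log2 units on at least 3 arrays, and called at an adjusted p under 0.05 in limma over all tested genes. All 9 members passed this filter, Myl1 on 7 arrays and Myl7 on 11, the others on 21. In total, the share called among the members was near that of the background. Both called members were lower, where the background was 9.41%, and none was higher, where it was 13.9%. The median change of the members was -0.09, beside 0.01 for all tested genes. With the fit kept to the 6 arrays of these groups, 18 genes were called, Myl7 and Myl4 among them. With groups weighted by their own residual variance over all genes, 955 genes were called and 0 members. Myl7 was then -3.77 with an adjusted p of 0.268 in limma. Its residual SD, after the sex term, was smallest in the treated group, at 0.183 against 0.781 in its controls. Without that term its SD between arrays was 0.494 in the treated group and 0.249 in its controls. Which of these groups spread more thus depended on the sex term.

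In the other comparisons limma called 0 members. The share of all tested genes called was 0.00878% after 1 injection in MerCreMer mice, 0% after 4 injections in wild-type mice and 0.676% for MerCreMer over wild-type mice after 4 control injections. It was 7.98% for the difference of the 4-injection changes between genotypes and 5.78% for the difference between 4 and 1 injections. At an unadjusted p under 0.05 these 5 comparisons held 0, 1, 3, 3 and 3 of the 9 members, and 3.34%, 2.59%, 14.9%, 24.9% and 23.1% of all tested genes.

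**Figure D1:**
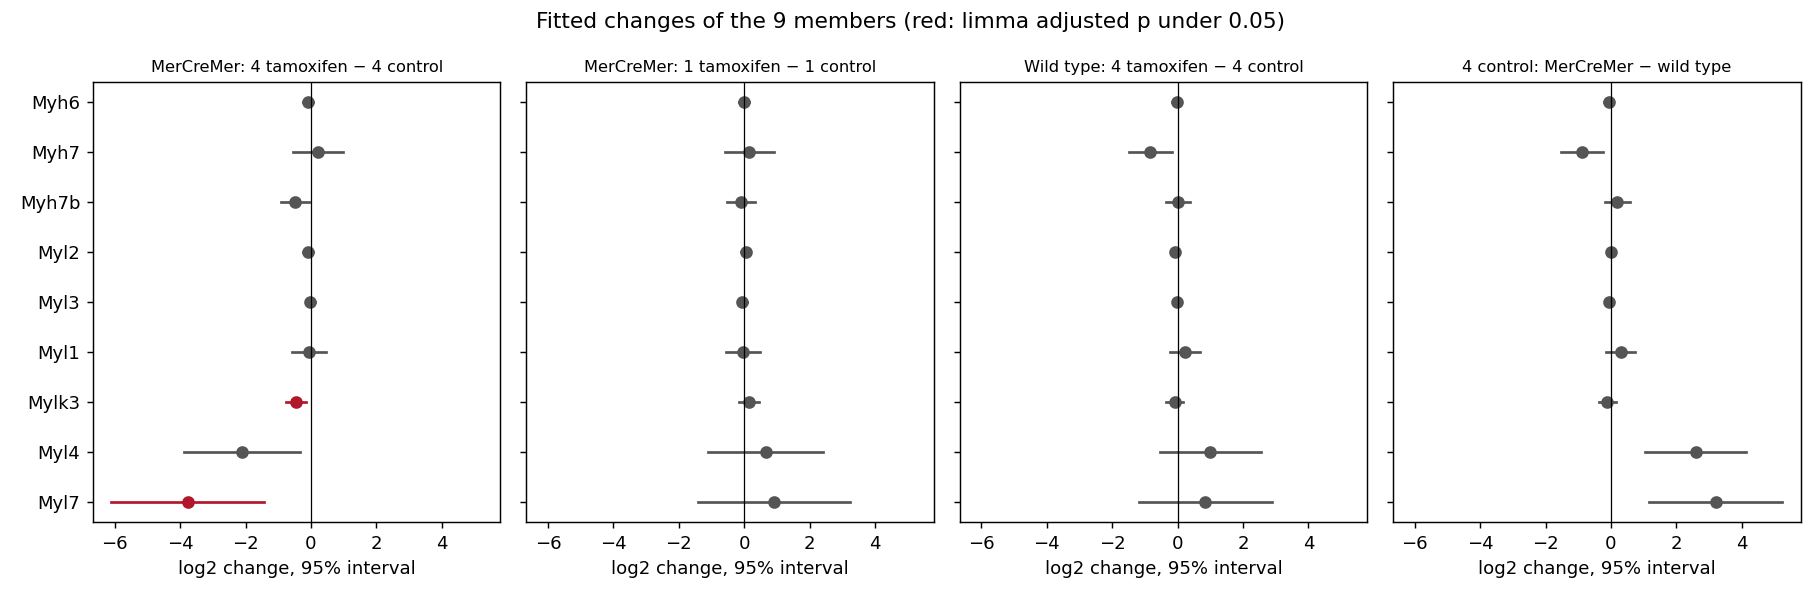
Fitted log2 change of each member (rows) in 4 comparisons (panels), tamoxifen over control injection in MerCreMer or wild-type mice and MerCreMer over wild-type control hearts, with 95% intervals from limma. Red marks members called at an adjusted p under 0.05: Myl7 at -3.77 and Mylk3 at -0.46 in MerCreMer mice after 4 injections.

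Myh6 (chr14:54941921-54968017, build GRCm38.p6), the α heavy chain that carries most of the contraction in adult mouse ventricle, was among the brightest 0.0403% of all 34760 probe sets. It read 12.52, 12.73 and 12.38 log2 units in MerCreMer 4 tamoxifen hearts, against 12.66, 12.62 and 12.61 in MerCreMer 4 control hearts. The treated arrays lay on both sides of the controls, and replicate 3 was the lowest of the series. The change of -0.09 (SE 0.0718) had an adjusted p of 0.401 in limma, with a 95% interval of -0.24 to 0.06. Without replicate 2 of the treated group, the array with the highest level, Myh6 was called at -0.19 with an adjusted p of 0.0273. So close to the top of the scale an array can compress differences, which was not tested here.

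After 1 injection Myh6 read 12.61, 12.63 and 12.60 in MerCreMer tamoxifen hearts, against 12.66, 12.58 and 12.63 in MerCreMer 1 control hearts, a change of -0.01 (SE 0.0718). In wild-type mice it read 12.71, 12.65 and 12.63 after 4 tamoxifen injections, while the 6 wild-type controls ran from 12.67 through a median of 12.70 to 12.72, a change of -0.03 (SE 0.0625). All 3 MerCreMer 4 control hearts lay below all 6 wild-type controls, yet the difference of -0.07 was not called, with an adjusted p of 0.661. With the array set as a block this difference was 0.00.

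Myh7 (chr14:54970684-54994626), the slow β heavy chain and a common readout of cardiac stress, varied more between arrays than Myh6 did. It read 8.23, 9.89 and 10.46 in MerCreMer 4 tamoxifen hearts, against 9.07, 9.03 and 9.84 in MerCreMer 4 control hearts. The treated group held both the lowest and the highest value of the series, and its SD of 1.159 compared with 0.457 in its controls. The change of 0.22 (SE 0.359) had an adjusted p of 0.698 in limma and a 95% interval of -0.54 to 0.97, without replicate 3 it was -0.18, and without replicate 1 it was 0.78 with an adjusted p of 0.062. Single arrays thus set both the sign and the size of the Myh7 value, and none of these fits called it.

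After 1 injection Myh7 read 9.48, 9.62 and 8.92 in MerCreMer tamoxifen hearts, against 8.59, 9.69 and 9.25 in MerCreMer 1 control hearts, and the groups overlapped. In wild-type mice it read 8.91, 9.72 and 9.45 after 4 tamoxifen injections, against 9.80 to 10.33 with a median of 10.16 in the 6 wild-type controls. These wild-type groups did not overlap, a state shared by 3.42% of tested genes and in the lower direction by 1.69%. The change of -0.84 (SE 0.313, 95% interval -1.49 to -0.18) reached an unadjusted p of 0.0154 and an adjusted p of 1 in limma. In that comparison limma called 0 genes, 295 genes (2.59%) had an unadjusted p under 0.05, and Myh7 was the 1 member among them.

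The same 6 controls served the transgene comparison, where MerCreMer 4 control hearts differed from wild-type controls by -0.88 for Myh7 (SE 0.313, 95% interval -1.54 to -0.23, adjusted p 0.179). Only replicate 3 of the MerCreMer controls, at 9.84, reached into the wild-type range. Because both distances were measured from the same wild-type arrays, they are not independent of each other. With Myl7 as a covariate the transgene difference of Myh7 was -0.63, and the part of atrial tissue in it was not tested further. The difference of the 4-injection tamoxifen changes between the genotypes was 1.05 for Myh7 (SE 0.476, adjusted p 0.179), and without replicate 1 of the MerCreMer 4 tamoxifen group it was called at 1.58 with an adjusted p of 0.0124.

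The balance of both heavy chains was followed as the log2 level of Myh7 minus that of Myh6 on each array, compared between groups only. It averaged -3.02 ± 1.196 in MerCreMer 4 tamoxifen hearts and -3.32 ± 0.478 in MerCreMer 4 control hearts (SD, n = 3 each), with an exact permutation p of 0.7, where 3 against 3 arrays cannot go below 0.1. After 1 injection it was -3.28 ± 0.362 in MerCreMer tamoxifen hearts and -3.45 ± 0.595 in their controls (SD, n = 3 each), again with an exact two-sided p of 0.7. In wild-type mice it was -3.31 ± 0.452 after 4 tamoxifen injections (SD, n = 3) and -2.59 ± 0.199 after 4 control injections (SD, n = 6), a difference of -0.72 with an exact permutation p of 0.0238, the smallest that 3 against 6 arrays allow. MerCreMer 4 control hearts differed from the same wild-type controls by -0.73, with an exact permutation p of 0.0476. Adjusted over the 4 comparisons, both were 0.0952 in the exact test and did not pass. Myh6 and Myh7 are close relatives in sequence and their probe positions were not used here, so cross-hybridisation was not tested.

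Myh7b (chr2:155611243-155634307) encodes a slow-tonic heavy chain and hosts miR-499. It read 7.29, 7.23 and 6.13 in MerCreMer 4 tamoxifen hearts, against 7.36, 7.50 and 7.25 in MerCreMer 4 control hearts. Replicate 3 stood more than a log2 unit below the others, while replicate 1 lay within the control range. The change of -0.49 (SE 0.207, 95% interval -0.92 to -0.05) had an adjusted p of 0.0954 in limma. Without replicate 3 it was -0.10, and without replicate 1 or replicate 2 it was called at -0.70 and -0.68, so replicate 3 decided this value. In the other groups Myh7b stayed between 7.0 and 7.43, with changes of -0.10 after 1 injection in MerCreMer mice, 0.01 in wild-type mice and 0.20 for MerCreMer over wild-type control hearts, none of them called.

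Between Myh6 and Myh7, which lie 2666 bases apart, the RNA gene Mhrt overlaps Myh7 by 3666 bases of annotated span and is known as an antisense transcript of that locus. Mhrt read 9.67, 10.04 and 8.82 in MerCreMer 4 tamoxifen hearts, against 10.25, 9.94 and 9.79 in MerCreMer 4 control hearts. The lowest value was again that of replicate 3, and the groups overlapped. Its change of -0.49 (SE 0.202) had an adjusted p of 0.0866 in limma. Without replicate 3 it was -0.15 (adjusted p 0.517), and without replicate 2, the highest treated array, it was called at -0.79 (adjusted p 0.002). Whether its probes share bases with Myh7 was not checked.

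**Figure D2:**
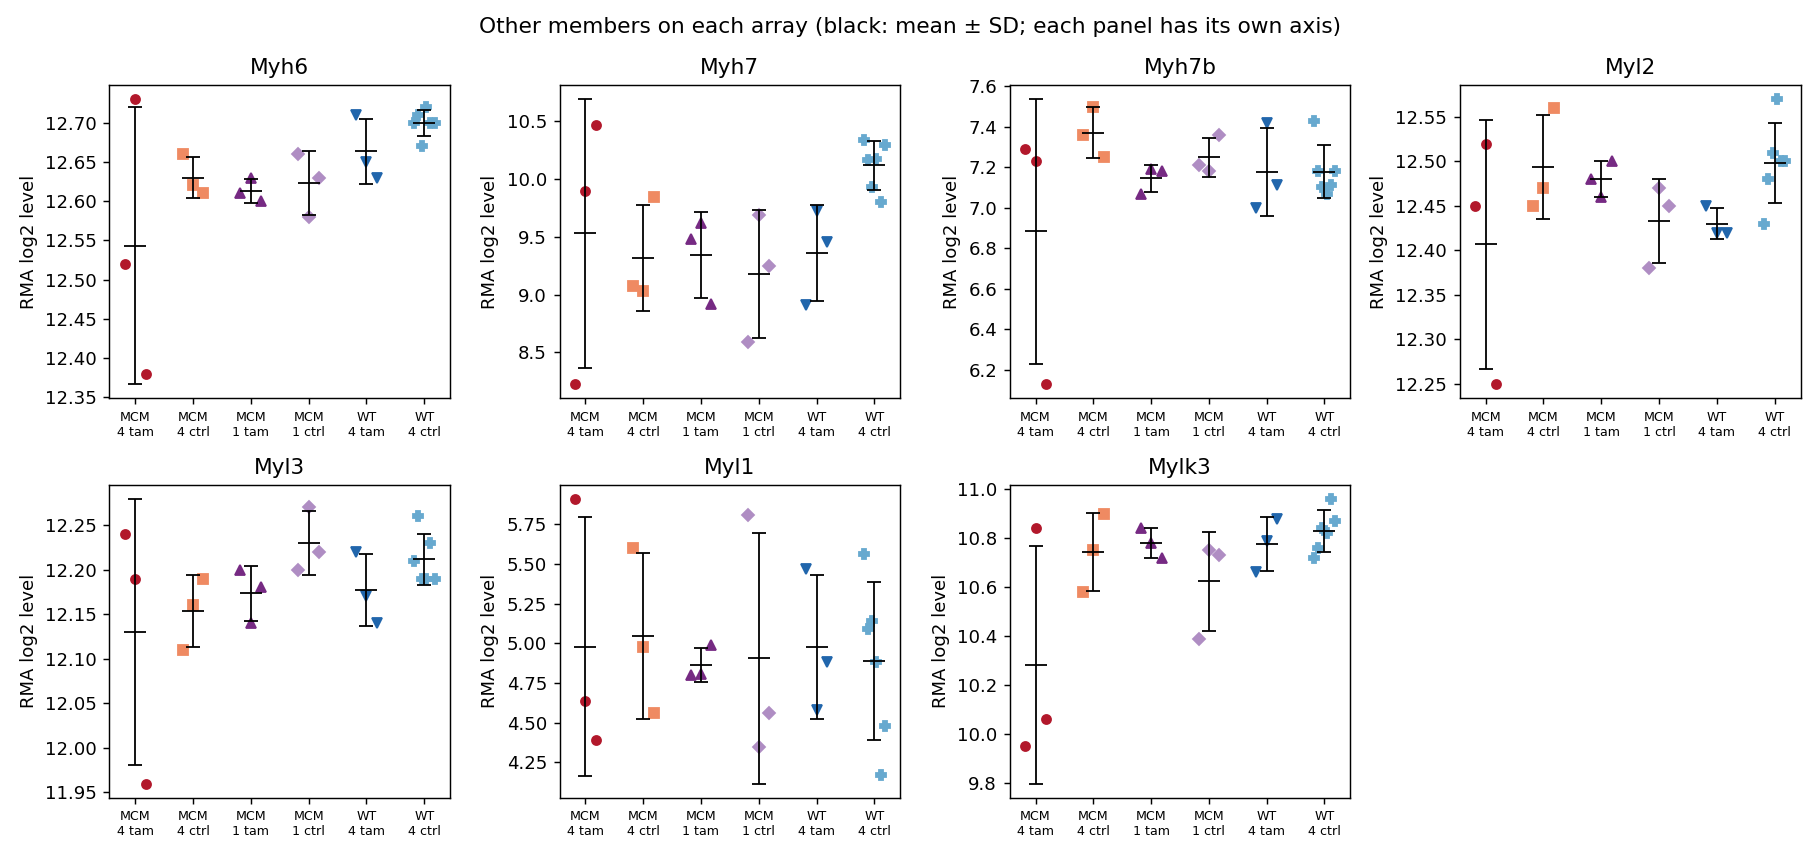
RMA log2 level (y axis, its own range in each panel) of the 7 members other than Myl7 and Myl4 on every array, by group (x axis), with black bars for the mean ± SD. The MerCreMer 4 tamoxifen arrays had the largest SD for all 7, with Myh7 between 8.23 and 10.46 there. For Myl1 the lead was slight, with an SD of 0.815 against 0.789 in MerCreMer 1 control hearts.

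Myl2 (chr5:122092724-122113473), the ventricular regulatory light chain, was nearly level over the series. It read 12.45, 12.52 and 12.25 in MerCreMer 4 tamoxifen hearts, against 12.45, 12.47 and 12.56 in MerCreMer 4 control hearts, a change of -0.08 (SE 0.0679, 95% interval -0.23 to 0.06). Only replicate 3 of the treated group lay below the control range. Myl3 (chr9:110763678-110769802), the ventricular essential light chain, read 12.24, 12.19 and 11.96 in MerCreMer 4 tamoxifen hearts, against 12.11, 12.16 and 12.19 in MerCreMer 4 control hearts, a change of -0.02 (SE 0.0676, 95% interval -0.16 to 0.12). The lowest Myl3 value was also that of replicate 3. Neither ventricular light chain was called.

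In the other comparisons the differences were of like size and none was called. The change of Myl2 was 0.05 after 1 injection in MerCreMer mice, -0.07 after 4 injections in wild-type mice and -0.01 for MerCreMer over wild-type control hearts. That of Myl3 was -0.06, -0.03 and -0.05 in the same 3 comparisons. For Myl3 the MerCreMer 1 tamoxifen arrays (12.20, 12.14 and 12.18) lay at or below all MerCreMer 1 control arrays (12.20, 12.27 and 12.22), and the MerCreMer 4 control arrays lay at or below all wild-type controls. Such non-overlap was found for 10.4% and 12.5% of tested genes in these comparisons, against 1 and 4 of the 9 members, the 4 being Myh6, Myl3, Myl4 and Myl7.

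Myl7 (chr11:5896637-5898782) is the atrial regulatory light chain, the counterpart of Myl2. It read 4.07, 4.72 and 5.04 in MerCreMer 4 tamoxifen hearts, against 8.60, 8.11 and 8.43 in MerCreMer 4 control hearts. The groups lay more than 3 log2 units apart. Myl7 fell by 3.77 on the log2 scale (SE 1.11, 95% interval -6.10 to -1.44), with an adjusted p of 0.0211 in limma. Treated replicates 1 and 2 lay below the filter level of 5 log2 units, so the size of the fall depends on readings too dim to measure a fold. Without replicate 3 of the treated group it was -3.83 with an adjusted p of 0.0457, and without replicate 1 of the controls it was no longer called, at -3.28 and 0.0896.

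Of the 6 groups, the MerCreMer 4 controls alone held no array of low Myl7 level. Myl7 read 4.30, 8.36 and 7.08 in MerCreMer 1 tamoxifen hearts, against 4.03, 4.05 and 8.93 in MerCreMer 1 control hearts. It read 7.82, 5.59 and 4.68 in wild-type 4 tamoxifen hearts, while the 6 wild-type controls ran from 4.22 through a median of 4.36 to 7.02. Every group other than the MerCreMer 4 controls thus held at least 1 array near 4 to 5 log2 units, and 4 of those 5 groups also held at least 1 above 7. The highest single value of the series, 8.93, came from a MerCreMer heart with 1 control injection.

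Measured against the wild-type controls, the MerCreMer 4 controls lay 3.20 log2 units higher (SE 0.965, 95% interval 1.17 to 5.23), with an adjusted p of 0.119 in limma and no overlap between the groups. This comparison called 77 genes (0.676% of those tested) and shares the MerCreMer 4 control arrays with the tamoxifen comparison above, so that high control values enter both with opposite sign. The change after 1 injection in MerCreMer mice was 0.91 (SE 1.11) and the change in wild-type mice 0.85 (SE 0.965), with wide intervals of -1.42 to 3.24 and -1.18 to 2.88. The difference of tamoxifen changes between genotypes was -4.62 (SE 1.47, adjusted p 0.0602) and between 4 and 1 injections -4.68 (SE 1.57, adjusted p 0.0844), and 7.98% and 5.78% of tested genes were called in these interactions.

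**Figure D3:**
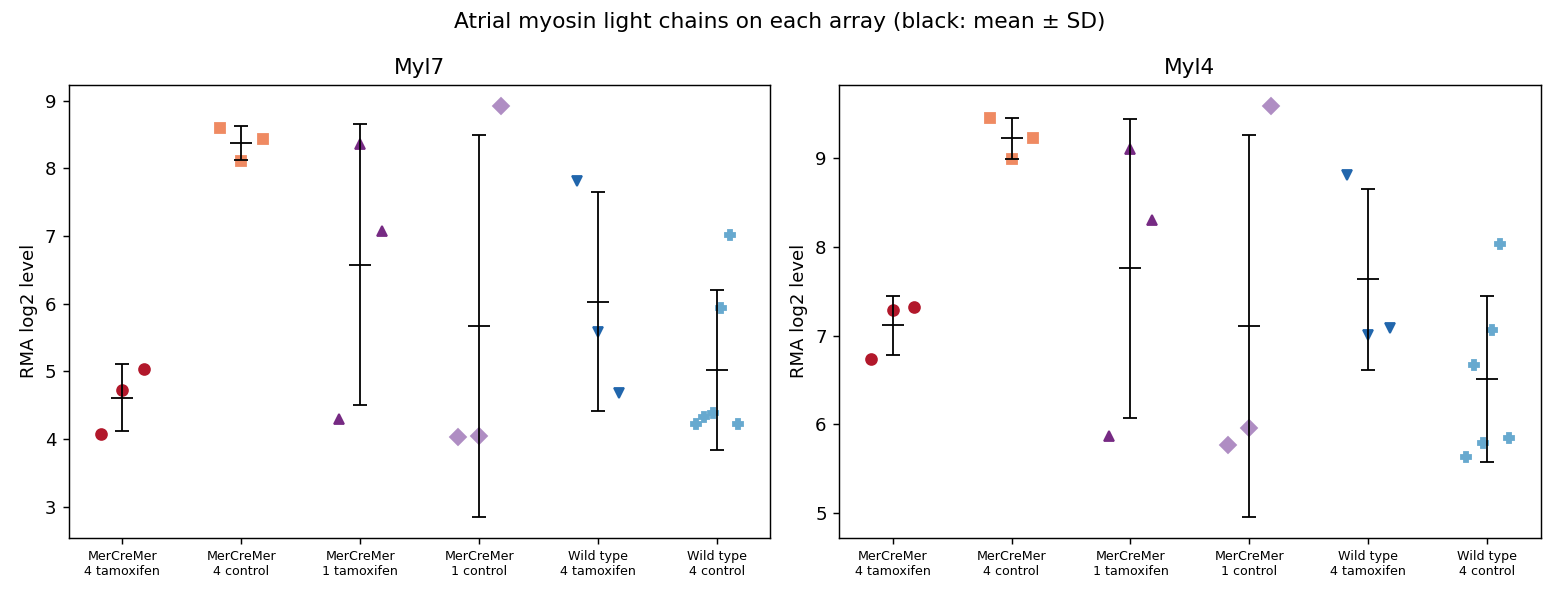
RMA log2 level (y axis) of Myl7 and Myl4 on every array, by group (x axis), with black bars for the mean ± SD. The 3 MerCreMer 4 control arrays sit between 8.11 and 8.60 for Myl7, above all 3 MerCreMer 4 tamoxifen arrays, and arrays of 4 other groups also lie above 7.

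Myl4 (chr11:104546017-104587215), the atrial essential light chain and counterpart of Myl3, followed the same arrays. It read 6.73, 7.29 and 7.32 in MerCreMer 4 tamoxifen hearts, against 9.45, 8.99 and 9.22 in MerCreMer 4 control hearts. The groups did not overlap, as for 27.9% of tested genes and, in the lower direction, 11.3%. The change of -2.11 (SE 0.84, 95% interval -3.88 to -0.34) had an adjusted p of 0.0759 in limma and was not called. Without replicate 3 it was -2.09.

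In the other pairs Myl4 read 5.87, 9.10 and 8.30 in MerCreMer 1 tamoxifen hearts, against 5.77, 5.96 and 9.59 in MerCreMer 1 control hearts. It read 8.81, 7.01 and 7.08 in wild-type 4 tamoxifen hearts, against 5.63 to 8.03 with a median of 6.26 in the 6 wild-type controls. Both pairs overlapped, with changes of 0.65 (SE 0.84) and 1.00 (SE 0.732). MerCreMer 4 control hearts were 2.59 log2 units above wild-type controls (SE 0.732, 95% interval 1.05 to 4.13, adjusted p 0.0994), without overlap and without a call. The interaction of tamoxifen with genotype was -3.11 (adjusted p 0.0928) and with the number of injections -2.76 (adjusted p 0.175).

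Myl7 and Myl4 varied together from array to array. Over 21 arrays, after removing group means and the difference between sexes, their residuals correlated with r = 0.97 and rho = 0.95, and r = 0.95 without the 2 arrays farthest out. This is a description over arrays that share one normalisation. The plot of Myl4 against Myl7 puts the MerCreMer 4 tamoxifen arrays above the other arrays of like Myl7 level. At Myl7 between 4.03 and 4.38, for instance, Myl4 was 6.73 on treated replicate 1 and 5.63 to 6.67 on 7 arrays of other groups. With Myl7 as a covariate, added after seeing the data, the tamoxifen change of Myl4 in MerCreMer mice was 0.67 with an adjusted p of 0.115, and its transgene difference 0.23 with 0.881.

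**Figure D4:**
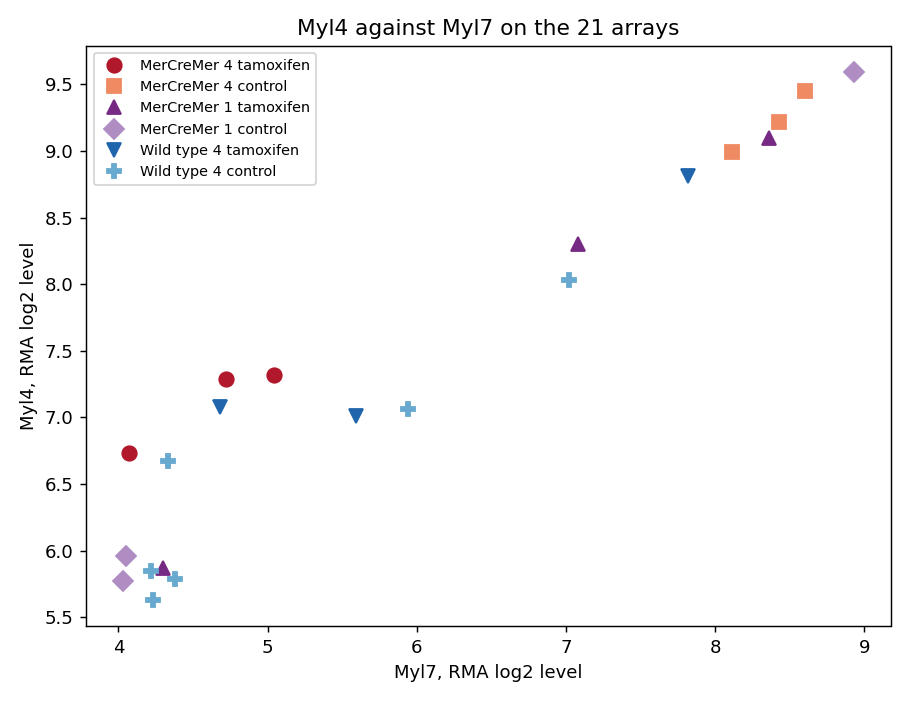
RMA log2 level of Myl4 (y axis) against that of Myl7 (x axis), 1 point for each of the 21 arrays, with symbols by group. The points climb from about 4 and 6 units to 8.93 and 9.59, and the MerCreMer 4 control arrays lie near the upper end. The MerCreMer 4 tamoxifen arrays lie above the other arrays of like Myl7 level.

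A list of 13 other atrial genes, 12 on the array and 8 tested, was set beside these arrays to judge carry-over of atrial tissue. Its mean log2 level was 6.85 to 7.20 in MerCreMer 4 tamoxifen hearts, against 7.29 to 7.37 in MerCreMer 4 control hearts. The remaining groups ran from 6.77 to 7.35, so their highest arrays reached the range of the MerCreMer 4 controls. Mybphl, 1 of the 8 tested genes, passed the filter mainly through those controls. The list mean, counts and median include it and are not counted as support. Of the 8 tested genes, 1 was called higher, 2 lower (Kcnj3 and Mybphl) and 5 not, with a median change of -0.21. In this comparison 13.9% of all tested genes were called higher and 9.41% lower. Among the defining genes Bmp10 read 2.10 to 2.85 and Sln, an atrial inhibitor of the calcium pump, 3.12 to 4.65, both below the filter on all arrays.

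The atrial genes did not move as 1 block. Mybphl, an atrial thick filament protein, read 3.83, 4.07 and 4.18 in MerCreMer 4 tamoxifen hearts, against 5.38, 5.35 and 5.08 in MerCreMer 4 control hearts. It reached the filter level on 4 arrays, 3 of them those controls, so it was tested through the group where it is high and its call is not counted as support. Its residuals followed Myl7 with r = 0.82, and those of Dkk3 and Sln with 0.81 and 0.88. Nppa, the atrial natriuretic peptide that stressed ventricle also makes, read 10.52, 11.95 and 12.59 in MerCreMer 4 tamoxifen hearts, against 10.81, 10.52 and 10.67 in MerCreMer 4 control hearts, and its residual r with Myl7 was 0.04. The potassium channel gene Kcnj3 fell by 1.74 (SE 0.337, adjusted p 0.00152), or by 1.06 without replicate 3 (adjusted p 4.56e-05), and its partner Kcnj5 rose by 0.78 (SE 0.157, adjusted p 0.00203), with residual r of 0.00 and -0.12. Kcnj3 was level between 7.44 and 8.22 on all arrays outside the MerCreMer 4 tamoxifen group, whatever their Myl7 level. The part of atrial tissue in the fall of Myl7 was not tested beyond these values.

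**Figure D5:**
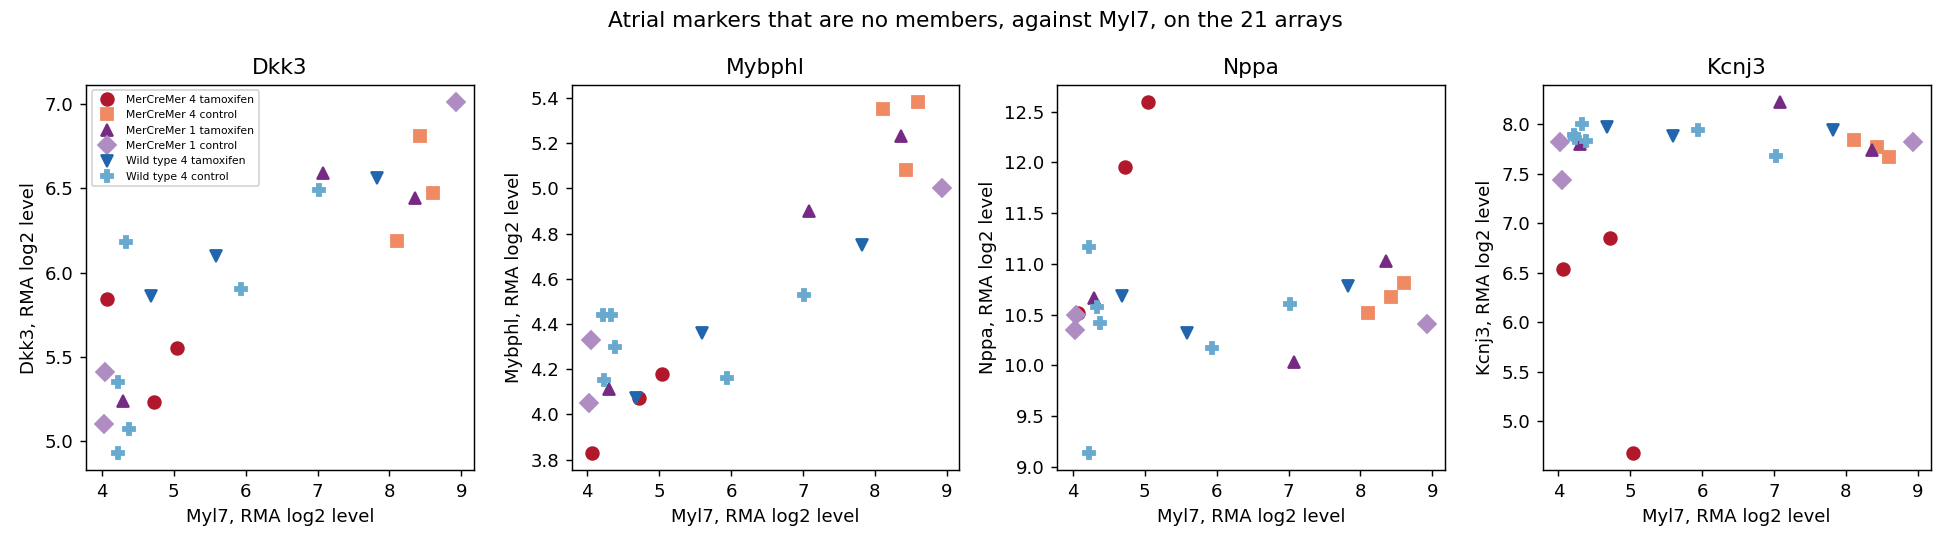
RMA log2 levels of Dkk3, Mybphl, Nppa and Kcnj3 (y axes) against that of Myl7 (x axes), 1 point for each of the 21 arrays, with symbols by group. Dkk3 and Mybphl climb with Myl7, while Nppa reaches 12.59 and Kcnj3 drops to 4.68 on MerCreMer 4 tamoxifen arrays of low Myl7 level.

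By a rule of likeness, the 5 tested genes with the highest residual correlation over 21 arrays, Myl7 was closest to Myl4 (0.97), P3h2 (0.83), Mybphl (0.82), Dkk3 (0.81) and Tut1 (0.81). Myl4 was closest to Myl7 (0.97), Dkk3 (0.88), Comp (0.87), Mybphl (0.83) and Cdh11 (0.82). Dkk3 and Mybphl stood on both lists and belong to the atrial list above. Myh7 was closest to Galnt16 (0.85), Alkbh3 (0.85), Mir25 (0.83), Chaf1a (0.82) and Tmem221 (0.81), none of them on a list used here, and with the 2 outermost arrays left out these were between 0.64 and 0.75.

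Myl1 (chr1:66924295-66947932), the essential light chain of fast skeletal muscle, lay near the filter, with 45.7% of probe sets brighter than its mean. It read 5.91, 4.64 and 4.39 in MerCreMer 4 tamoxifen hearts, against 5.60, 4.98 and 4.56 in MerCreMer 4 control hearts, a change of -0.07 (SE 0.248). In both groups the male, replicate 1, was highest. The changes in the other pairs were -0.04 after 1 injection in MerCreMer mice, 0.23 in wild-type mice and 0.30 for MerCreMer over wild-type controls, none called.

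Across the series Myl1 ran from 4.80 to 5.91 in the 8 males and from 4.17 to 4.99 in the 13 females. The 7 arrays on which Myl1 reached 5 log2 units were all from males, so it passed the filter through the sex where it is high. The sex term of the fit, examined after seeing the data, was 0.81 log2 units for males over females and is given as a description, with no test. After 4 tamoxifen injections in MerCreMer mice, 23.3% of all tested genes were called. Skeletal muscle markers passed the filter for 3 of 12 genes, and 1 of the 3 was called there. That was Tnnt3, fast troponin T, which rose by 1.84, while Tnni2 (0.38) and Atp2a1 (-0.18) were not called. Their part in the level of Myl1 was not tested.

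Mylk3 (chr8:85324928-85386340) encodes the cardiac kinase that phosphorylates the regulatory light chain Myl2. It read 9.95, 10.84 and 10.06 in MerCreMer 4 tamoxifen hearts, against 10.58, 10.75 and 10.90 in MerCreMer 4 control hearts. Replicates 1 and 3 lay below all controls, while replicate 2 lay among them. Mylk3 fell by 0.46 (SE 0.144, 95% interval -0.76 to -0.16, adjusted p 0.0288 in limma), to 0.728 of the control level. The call was lost without replicate 3 (-0.31, adjusted p 0.15), without replicate 1 (-0.34, 0.107) and without any 1 of the 3 controls (-0.48, -0.49 and -0.41). It was also lost with only the arrays compared (adjusted p 0.372 in limma), with group weights (0.0901) and with a replicate block (0.0747). Within the smaller array set, which holds 2 arrays of each MerCreMer group, the change was -0.82 with an adjusted p of 0.0361. That set leaves out treated replicate 2, the highest treated array at 10.84, and control replicate 1, the lowest control at 10.58.

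In the other pairs Mylk3 read 10.84, 10.78 and 10.72 in MerCreMer 1 tamoxifen hearts, against 10.39, 10.75 and 10.73 in MerCreMer 1 control hearts, a change of 0.15 (SE 0.144). It read 10.66, 10.79 and 10.88 in wild-type 4 tamoxifen hearts, against 10.72 to 10.96 with a median of 10.83 in wild-type controls, a change of -0.08 (SE 0.125). Both pairs overlapped. The interaction with the number of injections was -0.61 (SE 0.203, adjusted p 0.0834) and with genotype -0.37 (SE 0.19). Without MerCreMer 4 tamoxifen replicate 2 both were called, at -0.86 and -0.64.

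Marker lists of cell types were read in the same comparison, 4 tamoxifen against 4 control injections in MerCreMer mice. There 13.9% of all tested genes were called higher and 9.41% lower. All 10 macrophage markers were called higher after 4 tamoxifen injections in MerCreMer mice, 9 of 10 without replicate 3, with list means of 7.83, 7.22 and 8.51 log2 units against 6.80, 6.80 and 6.75 in the controls. Replicate 2, where Mylk3 lay among the controls, had the smallest macrophage mean and replicate 3 the largest. Mylk3 itself was lowest on replicate 1, at 9.95, against 10.06 on replicate 3. The 10 cardiomyocyte markers averaged 11.83, 11.89 and 11.46 in MerCreMer 4 tamoxifen hearts, against 11.97, 11.94 and 11.95 in MerCreMer 4 control hearts, and 2 were called lower. The 8 ventricular markers averaged 8.77, 8.87 and 8.28 in MerCreMer 4 tamoxifen hearts, against 9.00, 9.06 and 9.12 in MerCreMer 4 control hearts, with 3 called lower, Kcnj2 (-1.12), Fhl2 (-0.96) and Irx4 (-0.54), and a median change of -0.43. Without replicate 3, 2 ventricular markers were called lower, Irx4 was -0.33 (adjusted p 0.0663), and the median was -0.20. The 8 endothelial markers averaged 8.42, 8.05 and 7.79 in MerCreMer 4 tamoxifen hearts, against 8.43, 8.42 and 8.27 in MerCreMer 4 control hearts, with 3 called lower, Cdh5 (-0.32), Erg (-0.31) and Emcn (-0.36). Without replicate 3, 1 endothelial marker was called lower, and the list median was -0.15, against -0.29 with it. The 8 fibroblast markers averaged 8.45, 8.48 and 9.66 in MerCreMer 4 tamoxifen hearts, against 8.31, 8.24 and 8.41 in MerCreMer 4 control hearts. Limma called 0 of them, with or without replicate 3, and the list median was 0.46 with that array and 0.15 without it. Because the cardiomyocyte list includes Myh6 and the ventricular list Myl2, Myl3 and Myh7, those means are not independent of the members. The part of these cell types in the changes of Mylk3, Myh7b and Myh6 was not tested.

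Genes that act on myosin were followed through lists chosen, like the members, with earlier results of these data known. The background for each list after 4 tamoxifen injections in MerCreMer mice was 13.9% of all tested genes called higher and 9.41% lower. Among 12 light chain kinases and phosphatase subunits, 10 were tested and 2 were called higher and 2 lower after 4 tamoxifen injections in MerCreMer mice, with a median change of 0.01, equal to that of all tested genes. Ppp1r12b, a targeting subunit of myosin phosphatase in heart, fell by 1.07 (SE 0.0875, adjusted p 2.9e-07 in limma), and Mylk4, a further myosin light chain kinase of striated muscle, fell by 1.82 (SE 0.306, adjusted p 0.000466). Ppp1cc, a catalytic subunit of protein phosphatase 1, rose by 0.46 (SE 0.0887, adjusted p 0.0015), and Dapk3, a kinase that phosphorylates myosin light chain and the phosphatase subunit, rose by 0.38 (SE 0.0902, adjusted p 0.00669). Ppp1r12b differed by -1.05 between genotypes and by -1.14 between 4 and 1 injections, both called. The call of Ppp1cc was lost when all its single-gene probe sets were averaged.

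Of 18 thick filament partners and myosin chaperones, 16 were tested, with 3 called higher, 4 lower and a median of -0.03. The background was again 13.9% of tested genes higher and 9.41% lower. Mybpc2, the fast skeletal form of myosin-binding protein C, rose by 1.75 (SE 0.223, adjusted p 4.04e-05), and Hsp90aa1, a chaperone that folds the myosin head, rose by 0.95 (SE 0.168, adjusted p 0.000755). Mybphl was among the 4 called lower, with the limit of its filter given above. Titin, Ttn, the molecular spring that spans the thick filament, fell by 0.43 (SE 0.103, adjusted p 0.00649). Without replicate 3, 5 were called higher and 2 lower on this list.

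Of 22 regulators of myosin isoform expression, 20 were tested, with 1 called higher, 5 lower and a median of -0.11. Here too the background was 13.9% of tested genes higher and 9.41% lower. Mef2c, a muscle transcription factor, fell by 0.66 (SE 0.0615, adjusted p 1.48e-06), and Sox6, a repressor of slow fibre genes in skeletal muscle, fell by 0.74 (SE 0.0856, adjusted p 1.66e-05). Thrb, a thyroid hormone receptor, fell by 1.02 (SE 0.129, adjusted p 3.53e-05), and Purb, a single-strand DNA-binding repressor of Myh6, rose by 0.47 (SE 0.105, adjusted p 0.00452). Mef2c, Sox6 and Thrb were also called in both interactions, with differences between genotypes of -0.59, -0.78 and -0.96. Without replicate 3 the counts on this list were 2 higher and 7 lower.

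Myosins of other tissues were mostly too dim to test. Their calls are those after 4 tamoxifen injections in MerCreMer mice, where 23.3% of all tested genes were called. Of 11 other heavy chains 4 were tested and 1 was called, Myh10, a non-muscle heavy chain, which rose by 0.60 (SE 0.106, adjusted p 0.000703). Of 8 other light chains 4 were tested and 1 was called, Myl6, the essential light chain of non-muscle and smooth muscle myosin, which rose by 0.62 (SE 0.187, adjusted p 0.0245). The Myl6 call was lost without replicate 3 (0.27, adjusted p 0.0887) and when all its single-gene probe sets were averaged. It was also lost without any 1 of the controls. None of the genes on these lists was called in the other 3 comparisons. Every named call on these lists after 4 injections in MerCreMer mice was lost with only the arrays compared. Those of Dapk3, Mybphl, Ttn, Purb and Myl6 were also lost with group weights and within the smaller array set. The call of Myh10 was lost within that set, and that of Mybphl also with Myl7 as a covariate.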

How the data were processed

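The deposited values are log2 expression levels. The submitters' processing notes credit them to RMA, with no version, and they were used without further scaling. RMA corrects the background, quantile normalises arrays and summarises probes, which takes out any shift common to most genes. The sources used here give no scan dates or software. Gene names came from the annotation of the platform, which gave 1 gene for 21640, several for 1321 and no entry for 11799 of 34760; 99.6% of Entrez identifiers matched the RefSeq table of GRCm38.p6. Arrays were grouped by the labels.

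A model of 6 group means and sex was fitted with limma 3.58.1 to the 21 arrays in R 4.3.3 (14 residual and 3.98 prior degrees of freedom) on 11384 genes, with Benjamini-Hochberg adjusted p-values. The fit was tested on simulated data. The Myh7 and Myh6 difference was tested by exact two-sided permutation (scipy 1.17.1). No label states that each array is a separate animal, so p-values measure the spread between these samples, and the number of arrays limits precision. The members, lists and tests were chosen with earlier results of these data known. Named were all members, up to 4 called genes per list (else the one of smallest p), and the 5 genes most like Myl7, Myl4 and Myh7; marker genes named beside them were chosen after their values were seen. The array sets, the Myl7 covariate and the sex term were examined after seeing the data.

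Residuals of same-numbered arrays correlated by -0.04 to 0.11 between MerCreMer 4 tamoxifen and 4 control groups and by -0.24 to 0.28 in the other pairs, so the numbers were not taken to pair samples. Alternatives were no sex term, only the arrays compared, group weights, a replicate block, a second quantile normalisation, filters of 6 or none, mean probe sets, atrial covariates, array sets and leaving out each array.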

Additional observations from a re-analysis of the deposited data

Results flagged for a closer look

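For Myl4, all 3 MerCreMer 4 tamoxifen arrays (6.73, 7.29 and 7.32) lay below the mean of their controls, while all 3 wild-type 4 tamoxifen arrays (8.81, 7.01 and 7.08) lay above the mean of theirs. The log2 difference of the changes was -3.11, and the interaction in limma did not pass, with an adjusted p of 0.0928.

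For Myh7b, replicate 1 of the wild-type 4 controls read 7.43 log2 units, while the other 5 read 7.07 to 7.18. The gap to the nearest array was 0.689 of the whole range, above Dixon's 95% critical value for 6 arrays. Of 9 members examined in this group 1 was picked out in this way, and chance does so in about 1 of 20.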

How the results depend on the processing

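No member change that was called turned its sign under any alternative run, and 79 of 1128 member values, none of them called, did. Genes called after 4 tamoxifen injections in MerCreMer mice (2654) became 18 with only the arrays compared, 955 with group weights, 1314 with the Myl7 and Myl4 mean and 1141 with Myl7 as a covariate, and 655 within the smaller array set. Members called there (2) became 0 with group weights, which rest on all genes. They also became 0 with either covariate, where Myl7 cannot be tested by construction (nor Myl4 with the mean). Mylk3 was -0.51 with Myl7 as the covariate (adjusted p 0.0946 in limma) and -0.50 with the mean (0.0839). Within the smaller set 1 was called, Mylk3 at -0.82 (0.0361), and Myl7 was -2.78 (0.281). That set lacks MerCreMer 4 tamoxifen replicate 2 and MerCreMer 4 control replicate 1. Fits within the larger set hold 1 array of each MerCreMer group, assumed to vary like the other groups. For MerCreMer over wild-type controls (77 genes) the counts were 280 with only the arrays compared, 631 with group weights, 3 with each covariate, 7 with the array set as a block and 5 within the larger set. Members called there (0) became 2 with only the arrays compared (Myl4 2.62, Myl7 3.21) and 2 with group weights (Myl4 2.60, Myh7 -0.85). The genotype interaction (909) became 528, 516, 287, 274 and 316 with only the arrays compared, group weights, the mean covariate, Myl7 and the larger set, and 2 members were called with only the arrays compared. The injection-number interaction (658) became 113, 427, 225, 198, 411 and 4 with only the arrays compared, group weights, the mean covariate, Myl7, no filter and the smaller set. After 1 injection in MerCreMer mice (1) the count was 0 with the stricter filter and 2 with no filter or only the arrays compared. In wild-type mice (0) it was 2 with only the arrays compared and 3 with group weights. Each member has 1 probe set, so averaging probe sets left the members as they were.

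With the replicate number as a block, which the pairing check did not bear out, the calls were 1655 genes and 0 members after 4 tamoxifen injections in MerCreMer mice (Myl7 adjusted p 0.0524), 0 genes after 1 injection, 1 gene for MerCreMer over wild-type controls, and 27 and 232 genes in the interactions. The Myh7 minus Myh6 difference was -0.75 in wild-type mice and -0.77 for MerCreMer over wild-type controls with the block, and neither passed.

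Leaving out 1 array at a time gave 1648 to 3846 genes and 0 to 4 members after 4 tamoxifen injections in MerCreMer mice, the 4 without treated replicate 2. It gave 0 to 1 genes after 1 injection, 10 to 128 genes for MerCreMer over wild-type controls, 504 to 2242 genes and 0 to 1 members in the genotype interaction, and 378 to 1956 genes and 0 to 2 members in the injection-number interaction. Of the members, Myl7 (-5.46 without wild-type 4 tamoxifen replicate 3) gained a call in the genotype interaction. Myl7 (-6.21) and Myl4 (-3.91), both without MerCreMer 1 control replicate 3, gained calls in the injection-number interaction. Myh7 gained a call in the genotype interaction (1.58 without MerCreMer 4 tamoxifen replicate 1). Mylk3 gained a call in each (-0.64 for genotype and -0.86 for injection number, without MerCreMer 4 tamoxifen replicate 2). The Myh7 minus Myh6 difference ran from -0.25 to 0.94 and from -0.14 to 0.45 for 4 and 1 injections in MerCreMer mice, from -0.91 to -0.47 in wild-type mice and from -1.01 to -0.59 for MerCreMer over wild-type controls. Except where the construction shows it (fewer arrays or genes), the cause of these differences was not tested.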
